A study of Mus musculus with 6 samples.

Results

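The genes described here are the 10 that encode the steps of mitochondrial beta-oxidation after the acyl-CoA dehydrogenases: Hadha, Hadhb, Hadh, Echs1, Acaa2, Eci1, Decr1, Etfa, Etfb and Etfdh. They were chosen by name, for their place in the pathway, with earlier results of these data known. All 10 were found among the 55487 genes of the deposited tables. Poly(A) RNA was sequenced from 20 mg of frozen tissue per liver, from males aged 8 weeks, with 3 biological replicates per group. The SCADD group was of substrain BALB_cBYJ, which lacks a working short-chain acyl-CoA dehydrogenase, and the WT group was of substrain BALB_cJ. All mice were fed standard chow without restriction under a cycle of light and dark; the time of collection is not given in the sources used here. The deficiency and the substrain coincide in all 6 livers, so their contributions cannot be told apart. Every difference below is one between the groups of livers.

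In each turn of beta-oxidation an acyl-CoA dehydrogenase introduces a double bond, a hydratase adds water across it, a hydroxyacyl-CoA dehydrogenase oxidises the alcohol and a thiolase releases acetyl-CoA. The mitochondrial trifunctional protein carries the hydratase, dehydrogenase and thiolase steps for long chains, and separate matrix enzymes serve shorter chains. Electrons taken by the acyl-CoA dehydrogenases pass to the electron transfer flavoprotein and from it, through its membrane-bound oxidoreductase, to ubiquinone. The liver relies on this pathway for energy and ketone bodies during fasting, and short-chain acyl-CoA dehydrogenase stands directly upstream of the hydratase Echs1 and the flavoprotein Etfa and Etfb.

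Reads counted in genes totalled 16948986 to 23912744 in SCADD libraries and 23991104 to 27148756 in WT libraries, and unmapped reads made up 25.1% to 36.6% in SCADD libraries and 13.6% to 16.4% in WT libraries. Both extremes in SCADD, the most unmapped reads and the smallest total, belonged to replicate 3. The groups overlapped in neither measure, so read total and unmapped share also coincide with the substrain. Their part in the differences below was not tested. The gene for the missing enzyme, Acads, had 99.3, 104 and 97.0 CPM in SCADD livers, against 185, 166 and 196 CPM in WT livers (log2 fold change -0.86, SE 0.13, adjusted p = 0.00407 by edgeR). CPM here are read counts scaled to library size, after a TMM correction for differences in library composition. The summed level of 6 hepatocyte markers was 97795 to 133486 CPM in SCADD livers and 101307 to 152330 CPM in WT livers, with 0 of 6 past an adjusted p of 0.05 in edgeR (1 at an unadjusted p under 0.05). Endothelial markers summed to 131 to 212 CPM in SCADD and 213 to 248 CPM in WT livers, and Kupffer cell markers to 142 to 258 CPM in SCADD and 183 to 254 CPM in WT livers. Stellate cell markers summed to 289 to 532 CPM in SCADD and 364 to 497 CPM in WT livers, and cholangiocyte markers to 28.8 to 41.1 CPM in SCADD and 44.7 to 52.1 CPM in WT livers. Spp1 held most of the cholangiocyte sum, at 27.8 to 39.5 CPM in SCADD and 42.0 to 48.1 CPM in WT livers. Likewise Alb held most of the hepatocyte sum, at 79586 to 117365 CPM in SCADD and 86355 to 135287 CPM in WT livers. Markers of lymphocytes (1.84 to 2.23 CPM in SCADD, 1.09 to 4.99 CPM in WT), adipocytes (0.496 to 0.816 CPM in SCADD, 0.306 to 8.00 CPM in WT) and skeletal muscle (0.979 to 1.36 CPM in SCADD, 0.450 to 0.904 CPM in WT) were near 0. Of the zonal hepatocyte markers, 2 of 8 periportal genes fell (Sds and Cdh1), and of 6 tested pericentral genes 2 rose (Cyp1a2 and Slc1a2) and 1 fell (Lgr5). The endothelial Lyve1 also fell. Of these 6 calls that of Cdh1 held with each library left out in turn, and the others were lost without 1 library or another, at adjusted p of 0.0528 to 0.138: Slc1a2 in 1 such analysis, Sds and Lyve1 in 2 each, Cyp1a2 in 4 and Lgr5 in 5. At an unadjusted p under 0.05 by edgeR were 6 of 8 periportal, 3 of 6 tested pericentral and 4 of 6 endothelial genes. Their median log2 fold changes were -0.74, 0.08 and -0.41. So were 1 of 6 Kupffer cell, 1 of 6 stellate cell and 2 of 3 tested cholangiocyte markers, against 22.7% of all genes tested. In bulk tissue, fewer cells of a type and less RNA per cell cannot be told apart.

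No gene among the 10 differed between SCADD and WT livers past the threshold. By edgeR's quasi-likelihood test 0 of 10 passed an adjusted p of 0.05, against 7.02% of all 13498 genes tested, and 0 of 10 had an unadjusted p under 0.05, against 22.7% of all genes tested. DESeq2 and limma-voom also called 0 of 10 after adjustment, with 2 (Hadh and Decr1) and 1 (Hadh) at an unadjusted p under 0.05. The share of all genes at that level was worked out only for edgeR, so these 2 counts have no share to be set against. The fold changes leaned upwards, 7 above and 3 below no change, with a median log2 fold change of 0.16, against -0.00078 over all genes tested. Their median size without regard to sign was 0.22 on the log2 scale, against 0.24 over all genes tested. Over the tested genes whose mean CPM lay in the range of the 10, it was 0.21. The 95% intervals of all 10 fold changes included no change and excluded a 2-fold difference in either direction, and 5 of them also excluded a 1.5-fold difference. The lowest bound among them was 0.690-fold, for Echs1, and the highest 1.70-fold, for Decr1.

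The libraries of the groups did not overlap in CPM for 4 of the 10 genes, against 28.0% of all genes tested. Of these, 3 were higher in SCADD livers (Hadh, Acaa2 and Etfdh), against 14.9% of all genes tested, and 1 was lower (Echs1), against 13.1%. In 13 other ways of scaling or counting, or with 1 library left out, Hadh and Etfdh lay higher without overlap in all 13. Echs1 lay lower in all 13, and Acaa2 higher in 4. Leaving out a library can bring back overlap only through rescaling, so those of the 13 add little about the separation of these genes. In the deposited TPM, a level per transcript length, the groups did not overlap for Echs1 and Etfa only, both lower in SCADD livers. TPM fixes the total of each library, and the major urinary protein genes held 7.37%, 8.53% and 14.8% of it in SCADD livers, against 3.60%, 3.23% and 4.16% in WT livers. Their part in the difference between the scales was not tested.

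**Figure D1:**
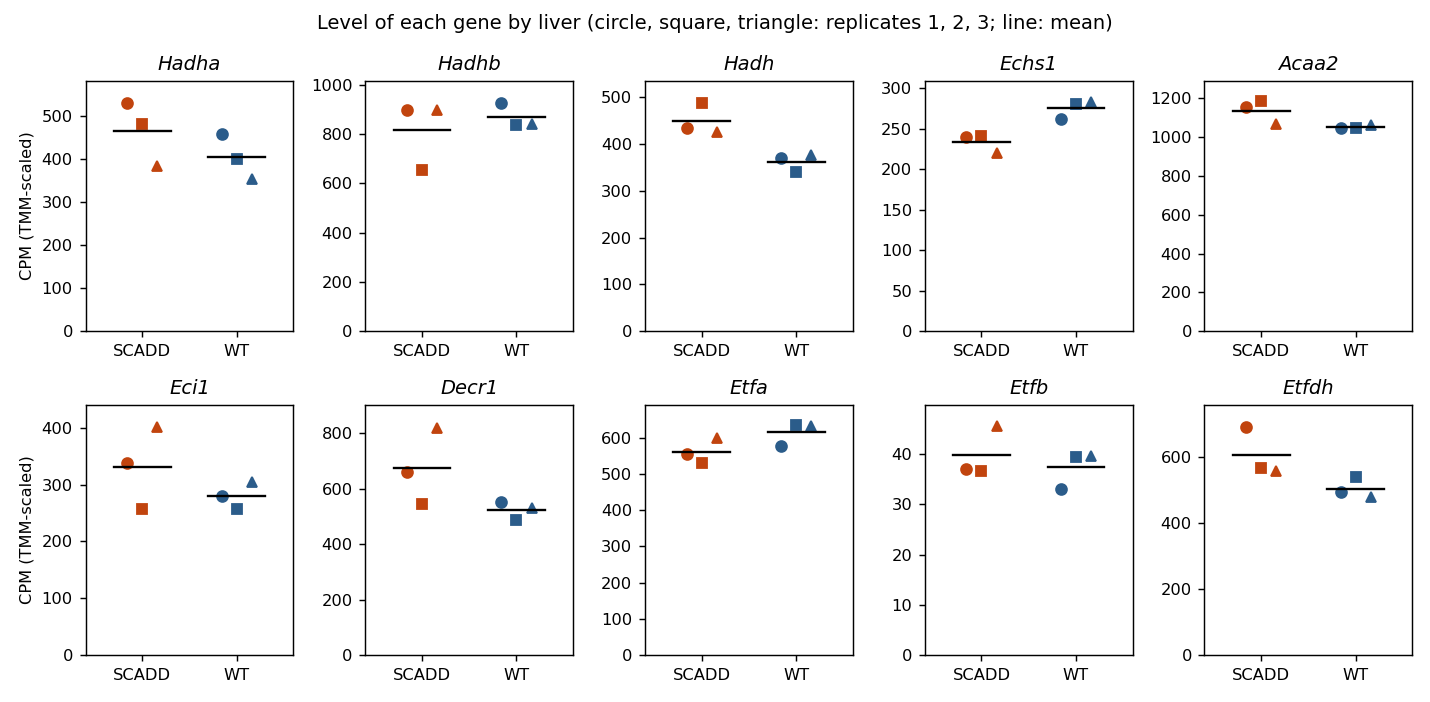
Level of each of the 10 genes in CPM (vertical axis, from 0), with the 3 SCADD livers left of the 3 WT livers and a line at each group's mean. The groups stand apart for Hadh, Acaa2, Echs1 and Etfdh, by the least for Acaa2, and the SCADD livers spread widely for Hadhb, Eci1 and Decr1.

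Hadha (ENSMUSG00000025745, chromosome 5, 30118304 to 30155162, minus strand, GRCm38) and Hadhb (ENSMUSG00000059447, chromosome 5, 30155248 to 30184593, plus strand) encode the alpha and beta subunits of the trifunctional protein. They are transcribed away from each other, and 85 bases separate their annotated ends. That gap is shown because one short stretch lies upstream of both genes, whose transcript levels are compared next. It is read on the plus strand of GRCm38.p6 at chr5:30155163-30155247 (RefSeq), from the Hadha side to the Hadhb side, with the 2 copies of the GC box GGGCGG in capitals.
Hadha-Hadhb gap: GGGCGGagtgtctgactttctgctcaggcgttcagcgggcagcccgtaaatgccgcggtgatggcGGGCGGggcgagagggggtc
The GC box, searched on both strands, occurs in 35.7% of the 32851 RefSeq promoter windows (250 bases before to 50 after a start), and in 7 of the 8 windows found for these genes. Across so short a gap the windows of Hadha and Hadhb can share bases, so the 8 may not be separate sequences. Also searched were CCAAT, in 4 of the 8 windows against 37.4% of all, and TCAAGGTCA, in 0 of the 8 against 0.423%.

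Hadha, which carries the long-chain hydratase and hydroxyacyl-CoA dehydrogenase activities, had 529, 482 and 384 CPM in SCADD livers 1, 2 and 3, against 458, 399.5 and 353 CPM in WT livers 1, 2 and 3. SCADD livers 1 and 2 lay above every WT liver and SCADD liver 3 lay among them (log2 fold change 0.20, SE 0.17, 95% interval -0.18 to 0.59, adjusted p = 0.540 by edgeR). The log2 fold change of Hadha was 0.09 without SCADD liver 1, 0.33 without SCADD liver 3 and 0.12 without WT liver 3. Hadhb, the long-chain thiolase, had 900.4, 655 and 899.7 CPM in SCADD livers, against 927, 838 and 840.3 CPM in WT livers. Here SCADD liver 2 was the lowest of all and the other two lay among the WT livers (log2 fold change -0.09, SE 0.18, 95% interval -0.47 to 0.30, adjusted p = 0.825). Without SCADD liver 2 the sign of the Hadhb difference changed, to 0.04.

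Since the subunits assemble into one complex, the ratio of their transcripts was compared within each liver. The Hadha to Hadhb ratio of TPM was 0.338, 0.411 and 0.251 in SCADD livers, against 0.292, 0.276 and 0.240 in WT livers. SCADD livers 1 and 2 had the highest ratios, and SCADD liver 3 fell within the WT range. The mean ratio was 0.333 ± 0.0801 in SCADD and 0.269 ± 0.0264 in WT livers (SD, n = 3 each), a log2 difference of 0.28 (exact two-sided permutation p = 0.3, where 0.1 is the smallest value 3 against 3 allow). The spread among SCADD livers was thus wider than the gap between the group means.

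Echs1 (ENSMUSG00000025465, chromosome 7, 140105710 to 140116476, minus strand), the short-chain enoyl-CoA hydratase, acts on the product of the enzyme that SCADD mice lack. It had 239.6, 242 and 221 CPM in SCADD livers, against 262, 281 and 283 CPM in WT livers. All SCADD livers lay below all WT livers, and within each group the values were close, with coefficients of variation of 4.94% in SCADD and 4.19% in WT livers. The log2 fold change was -0.23 (SE 0.14, 95% interval -0.53 to 0.07, adjusted p = 0.345 by edgeR), so the difference did not pass the test. Over 17 alternative analyses the log2 fold change stayed between -0.28 and -0.19, and the lowest adjusted p was 0.242, with upper-quartile scaling. Paox overlaps Echs1 on the opposite strand and had 206, 260 and 131 reads in SCADD livers, against 394, 278 and 449 in WT livers. The counts used were those of the strand that held 96.8% to 97.3% of stranded reads in each library. Of the 8 promoter windows, that of Echs1 alone held AGGTCA, a half-site bound by nuclear receptors, which occurs on either strand in 16.3% of all windows.

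Hadh (ENSMUSG00000027984, chromosome 3, 131233419 to 131272101, minus strand), the hydroxyacyl-CoA dehydrogenase for short and medium chains, had 434, 488 and 425 CPM in SCADD livers, against 369, 340.0 and 377 CPM in WT livers. Each SCADD liver was above each WT liver. Its log2 fold change was 0.31 (SE 0.15, 95% interval -0.01 to 0.63), with an unadjusted p of 0.0569 and an edgeR adjusted p of 0.237. Of the 10 genes it had the smallest unadjusted p, and the lowest adjusted p in any alternative, 0.121 without SCADD replicate 3. Set against the hydratase one step before it, the Hadh to Echs1 ratio of TPM was 1.54, 1.75 and 1.62 in SCADD livers, against 1.21, 1.03 and 1.14 in WT livers. This pair was chosen after the values were seen, and its ratio, which does not overlap between the groups, was not tested.

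Acaa2 (ENSMUSG00000036880, chromosome 18, 74779197 to 74806208, plus strand), the thiolase that ends the turn for medium chains, had 1153, 1186 and 1065.3 CPM in SCADD livers, against 1047, 1049 and 1064.7 CPM in WT livers. The groups did not overlap, but SCADD liver 3 and WT liver 3 were nearly equal. The log2 fold change was 0.11 (SE 0.15, 95% interval -0.23 to 0.44, adjusted p = 0.734 by edgeR). WT livers varied little, with a coefficient of variation of 0.916%, against 5.51% in SCADD livers.

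Unsaturated fatty acids need auxiliary enzymes that move or remove double bonds before the cycle can go on. Eci1 (ENSMUSG00000024132, chromosome 17, 24426641 to 24439348, plus strand), an enoyl-CoA isomerase, had 338, 257 and 401 CPM in SCADD livers, against 279, 257 and 304 CPM in WT livers. Decr1 (ENSMUSG00000028223, chromosome 4, 15917240 to 15945507, minus strand), a dienoyl-CoA reductase, had 659.8, 545 and 820.1 CPM in SCADD livers, against 552, 486 and 532 CPM in WT livers. For both genes SCADD liver 3 was the highest of all and SCADD liver 2 the lowest of its group, within or just below the range of the WT livers. The log2 fold change was 0.24 for Eci1 (SE 0.18, 95% interval -0.16 to 0.64, adjusted p = 0.475 by edgeR). For Decr1 it was 0.37 (SE 0.18, 95% interval -0.03 to 0.76, adjusted p = 0.260), the largest difference among the 10 genes. Without SCADD replicate 2 the adjusted p was 0.190 for Eci1, at a log2 fold change of 0.39, and 0.122 for Decr1, at 0.49. Without SCADD replicate 3 the differences shrank, to 0.09 for Eci1 (adjusted p = 0.763) and 0.20 for Decr1 (adjusted p = 0.400).

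The electron transfer flavoprotein is a heterodimer of the products of Etfa (ENSMUSG00000032314, chromosome 9, 55454508 to 55512243, minus strand) and Etfb (ENSMUSG00000004610, chromosome 7, 43444083 to 43457800, plus strand), and Etfdh (ENSMUSG00000027809, chromosome 3, 79603788 to 79629500, minus strand) encodes its ubiquinone oxidoreductase. The promoter windows of Etfdh and Etfa, and of none of the other 6 found, held GCATGCGC, the core of the motif bound by NRF1, a factor known to act on many genes of the respiratory chain. It occurs on either strand in 2.71% of all windows. The stretches around it are shown because these genes hand electrons on in sequence while their fold changes had opposite signs, neither past the test; each is 30 bases on the minus strand of GRCm38.p6 (RefSeq), at chr3:79628875-79628904 for Etfdh and chr9:55512330-55512359 for Etfa, with every match on either strand in capitals. Both lie upstream of the RefSeq start, which for Etfdh is inside the GENCODE bounds given above.
Etfdh: gcttctaggGCGCATGCGCacacgcgagag
Etfa: gagggcgtggcGCGCATGCcagcgtctcgg
In Etfdh a match on each strand overlaps the other, and Etfa has a match on 1 strand.

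Etfa had 556, 531 and 599 CPM in SCADD livers, against 578, 635 and 633 CPM in WT livers. SCADD livers 1 and 2 lay below every WT liver, and SCADD liver 3 lay among them (log2 fold change -0.13, SE 0.15, 95% interval -0.46 to 0.20, adjusted p = 0.659 by edgeR). Etfdh had 692, 566 and 558 CPM in SCADD livers, against 494, 541 and 479 CPM in WT livers. All SCADD livers lay above all WT livers, with SCADD liver 1 well above the rest (log2 fold change 0.26, SE 0.16, 95% interval -0.09 to 0.61, adjusted p = 0.367). Without that liver the log2 fold change of Etfdh was 0.14 (adjusted p = 0.776). The Etfdh to Etfa ratio of TPM was 0.691, 0.577 and 0.508 in SCADD livers, against 0.467, 0.458 and 0.417 in WT livers, a pair chosen after the values were seen and not tested.

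Etfb had 37.0, 36.7 and 45.5 CPM in SCADD livers, against 33.1, 39.4 and 39.6 CPM in WT livers. The groups overlapped, with SCADD liver 3 the highest and WT liver 1 the lowest (log2 fold change 0.09, SE 0.14, 95% interval -0.22 to 0.39, adjusted p = 0.771 by edgeR). The sign changed without SCADD replicate 3 (-0.02) and without WT replicate 1 (-0.01). This level rests on few reads, and the authors' other quantification gave far more. STAR counted 907, 778 and 734 reads in SCADD livers and 916, 902 and 1056 in WT livers, whereas the RSEM expected counts were 8441, 7121 and 6418 in SCADD livers and 8310, 7852 and 9229 in WT livers. RSEM gave 8.71 to 9.31 times the STAR count for Etfb, against 1.16 to 1.20 times for Hadhb, 0.794 to 0.876 times for the other 8 genes, and a median of 0.854 over all genes tested. A ratio of 5 or more was found for 122 genes, 0.904% of those tested.

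The annotation places a further gene, Gm45233, on the same strand over Etfb, with exon sequence in common. In GENCODE M21 it shares 617 of the 893 exonic bases of the transcript Etfb-201 (69.1%), in 5 of its 6 exons. STAR's gene counting leaves out reads that fall in more than 1 gene, and it gave Gm45233 0 reads in every library. The part of this overlap in the low STAR count of Etfb was not tested. On the RSEM expected counts the log2 fold change of Etfb was 0.12 (SE 0.15, 95% interval -0.22 to 0.46, adjusted p = 0.694 by edgeR), so the difference passed the test with neither count, although the counts themselves were far apart.

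The balance of the flavoprotein subunits was compared on TPM, which comes from RSEM. The Etfa to Etfb ratio was 0.757, 0.779 and 0.736 in SCADD livers, against 0.946, 0.914 and 0.882 in WT livers. Every SCADD liver was below every WT liver, and both groups were tight, with means of 0.757 ± 0.0215 in SCADD and 0.914 ± 0.0320 in WT livers (SD, n = 3 each). The log2 difference was -0.27 (exact two-sided permutation p = 0.1, the smallest value that 3 against 3 allow, so the design cannot pass 0.05). With STAR counts per effective length in place of TPM the ratio itself was 8.05 to 8.85 in SCADD and 9.70 to 10.6 in WT livers, so which subunit has more transcript turns with the count used, while the log2 difference between the groups was -0.24. On TPM, over the 6 analyses that each left out 1 library, the log2 difference ranged from -0.30 to -0.25. The other ratio fixed for testing, Hadha to Hadhb, differed by less than the spread among SCADD livers, and after Benjamini-Hochberg adjustment over the 2 ratios tested the exact p was 0.2 for Etfa to Etfb and 0.3 for Hadha to Hadhb.

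**Figure D2:**
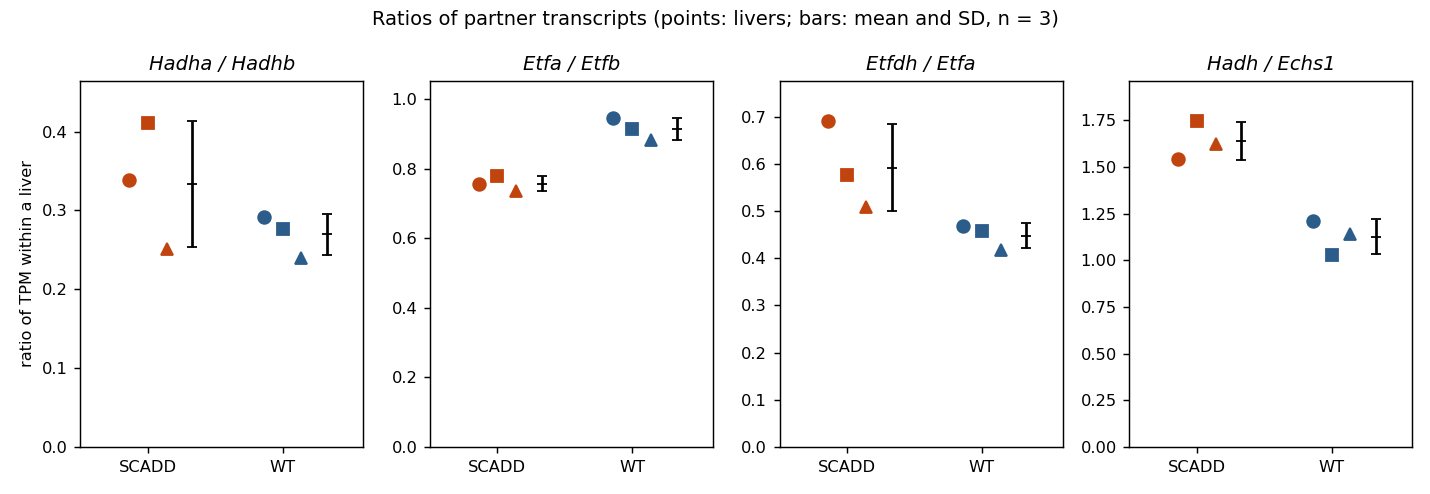
Ratio of TPM between partner transcripts within each liver (vertical axes, from 0), SCADD left of WT, with the mean and SD of 3 livers beside the points. Etfa / Etfb was lower in all 3 SCADD livers and Hadha / Hadhb overlapped, while Etfdh / Etfa and Hadh / Echs1 were picked after their values were seen.

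Across genes, levels were compared per transcript length, in TPM. Acaa2 was the most abundant of the 10 transcripts in each of the 6 livers, at 746 ± 169.6 TPM in SCADD and 717 ± 39.3 TPM in WT livers (SD, n = 3 each). Echs1 had the lowest mean over the 6 livers, at 148 ± 31.5 TPM in SCADD and 181 ± 3.24 TPM in WT livers, but in WT livers its mean was above those of Hadha (175 ± 33.8 TPM) and Decr1 (168 ± 19.2 TPM). Between them the order by mean over 6 livers was Hadhb (609 TPM), Etfb (547), Etfa (456), Eci1 (345), Etfdh (236), Hadh (223), Decr1 (185) and Hadha (183 TPM). In TPM, Hadhb was above Etfb in 5 of 6 livers, and Etfb above Etfa, Etfa above Eci1 and Eci1 above Etfdh in 6 of 6. The place of Etfb holds for TPM, which comes from RSEM; on STAR counts per effective length Etfa was 8.05 to 10.6 times Etfb in the 6 livers. Lower down, Hadh was above Decr1 in 5 of 6 livers, while Etfdh was above Hadh in 4 of 6, Decr1 above Hadha in 2 of 6 and Hadha above Echs1 in 4 of 6, and the ranges over the 6 livers overlapped for each of these pairs. Together the 10 transcripts held 0.412%, 0.392% and 0.312% of all TPM in SCADD livers, against 0.387%, 0.355% and 0.352% in WT livers. With the major urinary protein genes left out of the total the shares were 0.444%, 0.429% and 0.366% in SCADD livers, against 0.401%, 0.366% and 0.367% in WT livers.

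**Figure D3:**
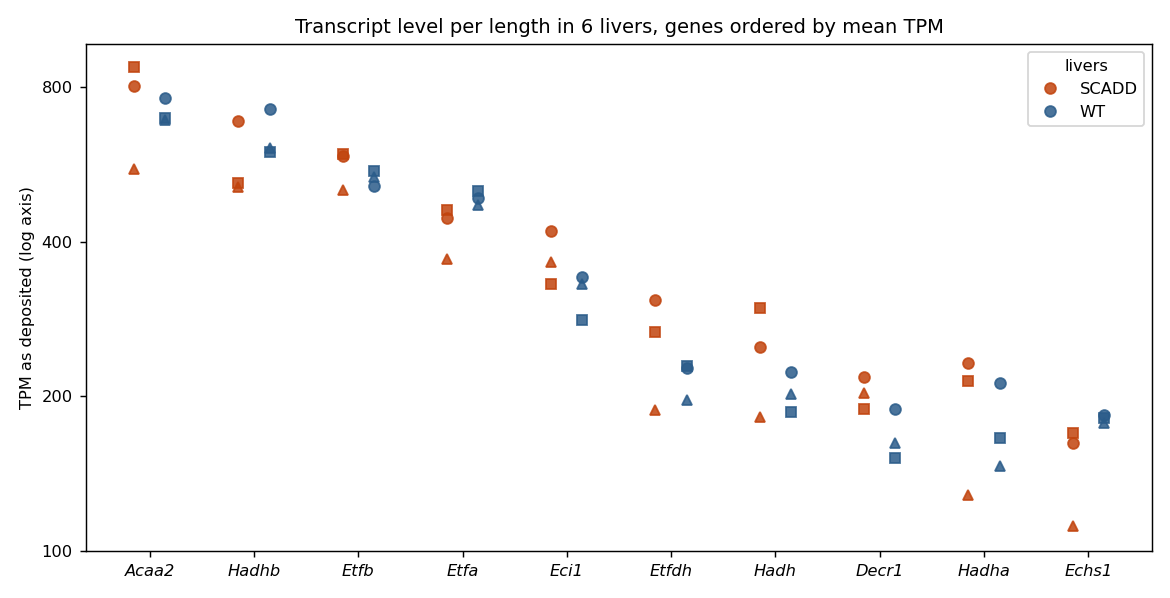
Deposited TPM of the 10 genes on a log axis, ordered by their mean over 6 livers, with SCADD livers left of WT livers and symbols for replicates 1 (circle), 2 (square) and 3 (triangle). Acaa2 leads in every liver, and SCADD replicate 3 is the lowest of the 6 livers for 8 of the 10 genes, all but Eci1 and Decr1.

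The 10 genes did not all have the same pattern over the livers. Profiles were compared as log2 CPM centred on each gene's mean over the 6 livers, and likeness as the root mean square difference between profiles, which is smaller for more similar genes. The most alike pair was the auxiliary enzymes Eci1 and Decr1, at 0.089, followed by Echs1 and Etfa at 0.11 and Hadh and Acaa2 at 0.12. Echs1 and Decr1 were least alike, at 0.37. Pairs of other genes were not measured, so whether these distances are small or large for genes of such levels was not tested. The mean profile of the 10 genes was at 0.10, -0.04 and 0.10 in SCADD livers and -0.05, -0.06 and -0.04 in WT livers. Among 2039 other genes averaging 50 CPM or more, those closest to this mean profile over the 6 livers were Top2b (0.028), Sepsecs (0.031), Dnajc22 (0.033), Tfam (0.039) and Rab5if (0.042). The mean profile varied little, so the measure favours genes that themselves vary little. The 10 genes lay farther from it, at 0.085 (Acaa2) to 0.19 (Hadha).

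**Figure D4:**
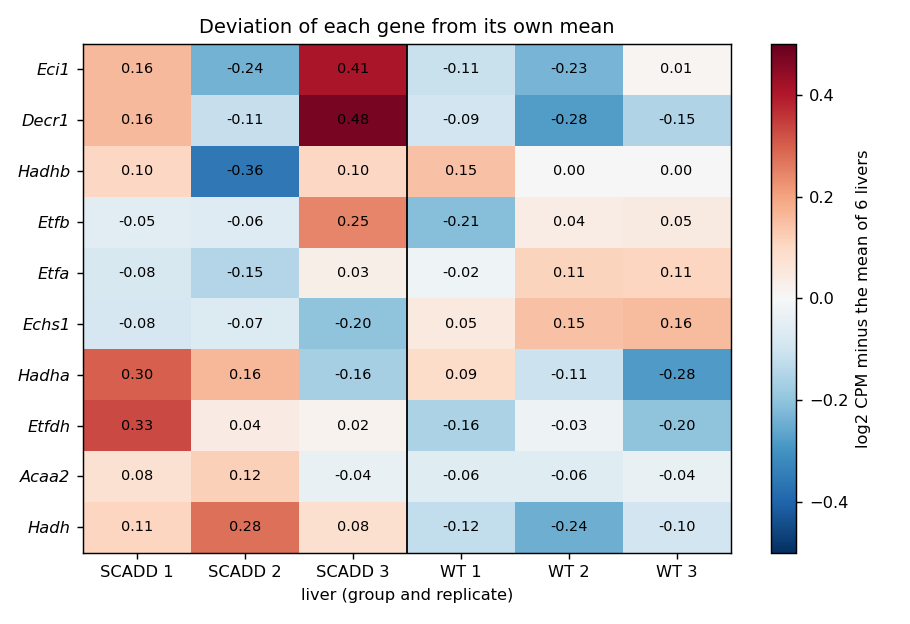
Log2 CPM of each gene minus its own mean over the 6 livers, by liver (columns, SCADD left of the line and WT right of it), with genes ordered by hand so that similar profiles are neighbours. Eci1 and Decr1 are high in SCADD replicate 3, Hadha and Etfdh are high in SCADD replicate 1, and Hadhb is low in SCADD replicate 2.

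At the step before these genes, calls were made in both directions. Of the 8 acyl-CoA dehydrogenases for straight chains, Acads fell and 1 rose: Acadm, the medium-chain enzyme, had 933, 829 and 722 CPM in SCADD livers, against 510.3, 556 and 464 CPM in WT livers (log2 fold change 0.70, SE 0.17, adjusted p = 0.0304 by edgeR). The Acadm call was lost without SCADD replicate 1 (adjusted p = 0.146), WT replicate 1 (0.0941), WT replicate 2 (0.0974) or WT replicate 3 (0.140), with 0.59 to 0.77 as its log2 fold change. Acadl, the long-chain enzyme, did not pass (0.45, SE 0.14, adjusted p = 0.0842), nor did Acadvl for very long chains (0.10, adjusted p = 0.751). The median log2 fold change of the 8 was 0.05, against 0.16 for the 10 later steps. In the carnitine shuttle, which carries acyl groups into the matrix, 2 of 5 genes rose, the carnitine transporter Slc22a5 (0.83, SE 0.14, adjusted p = 0.00640) and the carnitine-acylcarnitine translocase Slc25a20 (0.78, SE 0.13, adjusted p = 0.00681), and both calls held in all 17 alternatives. Whether these lists differ from the later steps was not tested.

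Ehhadh, a gene of the peroxisomal counterparts, had the largest log2 fold change of all genes in the pathway lists. Ehhadh, which joins the hydratase and dehydrogenase activities in one enzyme, rose, with 3704, 2107 and 3122 CPM in SCADD livers, against 1040.3, 536 and 436 CPM in WT livers (log2 fold change 2.15, SE 0.34, adjusted p = 0.00617 by edgeR). The thiolase Acaa1b rose as well (1.52, SE 0.24, adjusted p = 0.00431). The Ehhadh call was lost without SCADD replicate 3 (adjusted p = 0.0778), and that of Acaa1b held in all 17 alternatives. The reductase Decr2, the peroxisomal relative of Decr1, did not pass (0.36, SE 0.18, adjusted p = 0.280), and its difference was close in size to that of Decr1.

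**Figure D5:**
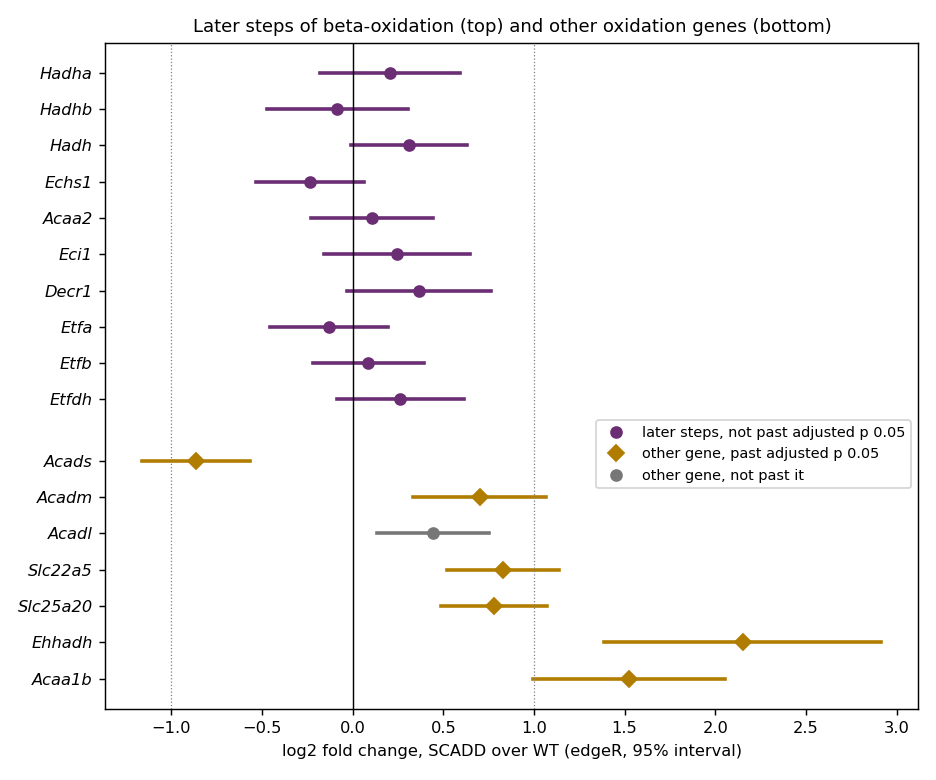
Log2 fold change, SCADD over WT, with 95% intervals from edgeR for the 10 genes (above) and for 7 other genes of fatty acid oxidation (below); dotted lines mark a 2-fold difference. All 10 intervals above include 0 and lie inside the dotted lines, while Acads lies below 0, and Acadm, Slc22a5, Slc25a20, Ehhadh and Acaa1b lie above it, as does Acadl, which did not pass the adjusted threshold. The 7 had the smallest p of their lists and do not stand for them. Among 8 acyl-CoA dehydrogenases 1 rose and 1 fell. Of 5 carnitine shuttle genes 2 rose, and of 9 peroxisomal counterparts 3 rose.

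Around the flavoprotein no gene passed the test. In edgeR 0 of 5 genes that supply its FAD cofactor or modify it passed (1 at an unadjusted p under 0.05), and 0 of 8 other dehydrogenases that pass electrons to it (2 at an unadjusted p under 0.05), with median log2 fold changes of -0.27 and -0.21. Etfbkmt, the methyltransferase of the beta subunit, varied widely, with 120.5, 69.6 and 151 CPM in SCADD livers and 41.7, 107 and 129.6 CPM in WT livers. Of 9 tested relatives of the hydratase, isomerase and dehydrogenase enzymes 0 passed (2 at an unadjusted p under 0.05). Hsdl2 came closest, with 0.57 on the log2 scale (SE 0.18, adjusted p = 0.0926). Of 4 genes of ketone body synthesis, which draws on the acetyl-CoA that thiolases release, 0 passed and 0 had an unadjusted p under 0.05.

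Of 12 genes taken for mitochondrial content, 1 rose, the citrate synthase gene Cs (log2 fold change 0.52, SE 0.13, adjusted p = 0.0374 by edgeR), and the median was 0.02. The Cs call was lost with upper-quartile scaling (adjusted p = 0.0592) and without SCADD replicate 1 (0.146), SCADD replicate 2 (0.0559), WT replicate 2 (0.166) or WT replicate 3 (0.132). Of 7 regulators of the pathway, 1 fell: Ppargc1a, a coactivator of oxidative genes, had 4.65, 6.18 and 3.60 CPM in SCADD livers, against 11.4, 24.7 and 15.3 CPM in WT livers (log2 fold change -1.82, SE 0.30, adjusted p = 0.00744), a call lost without SCADD replicate 3 (adjusted p = 0.0516). Ppara, the nuclear receptor that drives fatty acid oxidation genes in liver, was at 61.8, 79.1 and 50.9 CPM in SCADD livers, against 44.0, 46.4 and 48.1 CPM in WT livers (0.47, SE 0.16, adjusted p = 0.112). In edgeR 3 of the 7 regulators had an unadjusted p under 0.05, and the median log2 fold change of the 7 was 0.22. Without SCADD replicate 3, 2 of the 7 were called higher and 0 lower. Calls over the whole table also rose in that setting, to 1590 genes from 947 with all 6 libraries. At their 95% bounds the 10 later steps of the pathway stayed within 2-fold of their WT level.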

How the data were processed

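The submitters' processing notes name the aligner STAR (2.7.6a), the quantifier RSEM (1.3.3) and the build GRCm38, and the annotation release is not given in the sources used here. Raw gene-level read counts from STAR were deposited, one file per library, beside the authors' RSEM output with expected counts, effective lengths and TPM, the last scaled to the same total in every library. The stranded STAR column with over 90% of stranded reads was used; its summary rows for unmapped (13.6% to 36.6%), multi-mapped (10.1% to 13.1%), no-gene (1.47% to 2.17%) and ambiguous reads (1.09% to 1.53%) stayed out. Symbols and coordinates come from GENCODE M21 (55227 of 55487 IDs matched), and sequences from RefSeq tables of GRCm38.p6, which held a window for 8 of the 10 genes.

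Genes passing edgeR's filterByExpr (minimum count 10) were TMM-scaled and tested with edgeR 4.0.16 (glmQLFit, robust, and glmQLFTest) in R 4.3.3, with group as the only term over all 6 libraries. Benjamini-Hochberg adjustment ran over all 13498 genes tested, and 0.05 was the threshold. SE is the log2 fold change over the square root of F, an approximation. Every adjusted p is edgeR's unless another tool is named. Ratios of TPM were compared by exact permutation of libraries. The steps were checked on simulated data. Alternatives were RLE and upper-quartile scaling, other filters, major urinary protein genes left out, DESeq2 1.42.0, limma-voom (limma 3.58.1), edgeR without robust estimation, rounded RSEM expected counts, the unstranded column, the replicate number as a block, and leaving out each library. Counts of replicate pairs differed by more than sampling noise (chi-square per degree of freedom 41.8 to 157). The 10 genes and the other lists were chosen with earlier results of these data known. All 10 were named; of each other list, genes were named from the 4 with the smallest p, and Decr2 and Etfbkmt were chosen after their values were seen. The marker genes called and the 5 genes closest to the mean profile were also named. A gene of the lists is not reported here.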

Additional observations from a re-analysis of the deposited data

How the results depend on the processing

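The 10 genes gave 0 calls in either direction in all 17 alternatives, with a lowest adjusted p of 0.121. Of 170 log2 fold changes under the alternatives 167 kept their direction; the 3 that reversed were Hadhb (0.043 without SCADD replicate 2, in a range of -0.18 to 0.043 with 1 library left out) and Etfb (-0.019 without SCADD replicate 3 and -0.0065 without WT replicate 1, in a range of -0.019 to 0.13), and the cause was not tested. The 947 genes called over the whole table became 1702 without a filter on low counts and 395 to 1590 with 1 library left out, where 395 came from omitting WT replicate 2, 1590 from omitting SCADD replicate 3, 460 from omitting WT replicate 3 and 517 from omitting SCADD replicate 1. The number of the 10 genes whose groups do not overlap, an alternative set chosen after seeing the data, was 4 in CPM, 2 in TPM and 3 to 6 with 1 library left out. The share over all genes tested, 28.0%, was worked out only for CPM with all 6 libraries. Fewer libraries separate more easily, so the counts with 1 left out cannot be set against that share, nor can the TPM count. With the replicate number as a block (replicate block) 1148 genes were called, and 0 of the 10; the ratio differences were 0.28 for Hadha to Hadhb and -0.27 for Etfa to Etfb, as without it. Same-numbered livers correlated at 0.061, 0.037 and 0.11 in their deviations from the group means, and different-numbered ones at -0.13 to 0.061. SCADD replicates 2 and 3 correlated best with the WT replicate of their own number. SCADD replicate 1 correlated no better with WT replicate 1 than with WT replicate 2. The labels give 2 groups and no batch, so the main fit did not take the numbers as pairs. These correlations do not settle whether the livers were paired. The Hadha to Hadhb difference ranged from 0.12 to 0.47 with 1 library left out. With 3 livers a group, the 95% intervals of 5 of the 10 genes still reached past a 1.5-fold difference.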
